A study of Mus musculus with 30 samples.

Results

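The nuclear genes for the subunits of the oxidative phosphorylation complexes were described in 30 mouse RNA libraries. Members were taken by gene symbol alone: the Nduf families a, b, c, s and v, Sdha to Sdhd, Uqcr, Cox4 to Cox8 and Atp5, without pseudogene symbols and without 1 gene that is not described here. The rule found 83 of 21030 gene names: 36 for complex I, 4 for complex II, 8 for complex III, 18 for complex IV and 17 for complex V. Of these, 79 were listed for sorted progenitor cells among 11740 genes, 71 for bone marrow among 11271 and all 83 for stromal cells among 20619, and 71 were in every table. The genes lay on 19 chromosomes and none on the mitochondrial genome.

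Oxidative phosphorylation makes ATP in the inner mitochondrial membrane. Complexes I and II take electrons from NADH and succinate, ubiquinone passes them to complex III, cytochrome c passes them to complex IV, and complex IV gives them to oxygen, while complex V, the ATP synthase, uses the proton gradient that complexes I, III and IV build. Most subunits are encoded in the nucleus and a few in the mitochondrial DNA, complex II wholly in the nucleus. Blood stem cells are known for a low use of this pathway, and their differentiating progeny for a higher one. Not every gene that the symbols bring in is a plain subunit. Atp5sl (Dmac2 in GENCODE) and Atp5s, counted by their symbols with complex V, are known as assembly or coupling factors. Cox7a2l is known as a factor of respiratory supercomplexes, and Ndufa4, counted by its symbol with complex I, as a subunit of complex IV.

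The mice were on the C57BL/6 background. LSK cells, the lineage-negative Sca-1+ Kit+ marrow fraction that holds stem and multipotent progenitor cells, came from 4 groups of 3 libraries, none with disease yet. WT mice were wild type, untransplanted, with no shRNA and no ENU (N-ethyl-N-nitrosourea, an alkylating mutagen). In the transplanted WT group, wild type marrow carrying a luciferase shRNA had been given to a WT recipient, again without ENU. EAP marrow was haploinsufficient for Egr1 and Apc (Egr1+/-, Apc del/+), carried a Trp53 shRNA and was given to a WT recipient without ENU. EAP with ENU was the same, with ENU to both donor and recipient. The sort took place about 2 months after transplantation. Of the marrow libraries, 6 came from mice with MDS (Egr1/Apc haploinsufficient, luciferase shRNA, ENU to donor and recipient) and 6 from mice with AML (Egr1/Apc haploinsufficient, Trp53 shRNA). ENU had been given to donor and recipient of AML 1, 4 and 5, to the recipient alone of AML 6, and to neither for AML 2 and 3. All 12 marrow libraries thus carried the Egr1 and Apc alleles, and no healthy marrow was among them. The shRNA was luciferase in all MDS and Trp53 in all AML libraries, so disease and shRNA cannot be told apart in marrow. The stromal libraries were compact bone mesenchymal cells at passage 1 to 2 from wild type, untransplanted mice given 10% ethanol (mock, 3 libraries) or 100 mg/kg ENU (3 libraries) 1 month earlier. The labels give a mouse number for each marrow library only, so in LSK and stromal cells the p-values measure the spread between libraries whose animals are not named, and that spread may be technical.

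Library totals ran from 808377 to 1437201 in the LSK table and from 826742 to 1141532 in the marrow table, and from 924162 to 939600 TPM (a unit scaled for transcript length and library total) in the stromal table. Reads could be recovered from the marrow values alone, 17340486 to 21698131 per library, and sequencing depth is unknown elsewhere. Trp53, the shRNA target, was 213 to 370 in the 6 WT and transplanted WT libraries and 65.5 to 173 in the 6 EAP libraries. For EAP 1 one label names wild type donor marrow while its other labels say EAP; its Trp53 value was 65.5. All 6 LSK markers were above 0 in every LSK library and all 7 stromal markers in every stromal library.

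The promoters of the members were read first, and their part in the levels described below was not tested. The RefSeq promoter table (GRCm38.p6, 250 bases before to 50 after each start) held 66 of the 83 members, with 71 windows. Sites were counted by letters on both strands. The NRF1 type motif (GCGC, any base, then TGCGC) was in 18 member windows (25.4%) and in 4.6% of all 32851 windows of the same length. The ETS type motif CCGGAAG, bound by GABPA among others, was in 16 (22.5%, against 8.86%), the YY1 type AANATGGC in 16 (22.5%, against 6.05%) and the SP1 type GGGCGG in 27 (38%, against 35.7%). NRF1 or ETS letters were in 30 windows (42.3%, against 12.6%). NRF1 and GABPA are known as activators of respiratory chain genes, and a match of letters is a description and not a binding site shown here.

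For each complex a promoter with an NRF1 or ETS match before the start is shown. Other promoters of the same complex may hold as many matches or more. Each shown promoter runs 5′ to 3′ on the gene's strand, from 10 bases before its first match to the base before the start. All 5 lie on the minus strand, and capitals mark NRF1 or ETS letters on either strand. The complex I promoter is that of Ndufb4, an accessory subunit, at chr16:37654369-37654569. For complex II it is that of Sdha, the flavoprotein that oxidises succinate, at chr13:74350241-74350348. Complex III is shown by Uqcr11, a small subunit, at chr10:80406822-80406897. Complex IV is shown by Cox6a1, the common form of a regulatory subunit, at chr5:115348959-115349130. Complex V is shown by Atp5h, a stalk subunit, at chr11:115419920-115420070.
Ndufb4: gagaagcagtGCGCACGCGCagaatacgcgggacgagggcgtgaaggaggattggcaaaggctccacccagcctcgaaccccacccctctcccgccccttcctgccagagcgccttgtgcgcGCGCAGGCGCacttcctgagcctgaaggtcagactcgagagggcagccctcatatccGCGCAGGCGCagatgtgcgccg
Sdha: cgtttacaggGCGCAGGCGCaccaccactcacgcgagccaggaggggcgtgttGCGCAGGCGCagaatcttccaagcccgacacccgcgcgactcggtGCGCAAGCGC
Uqcr11: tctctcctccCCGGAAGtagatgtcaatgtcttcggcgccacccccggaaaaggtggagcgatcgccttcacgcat
Cox6a1: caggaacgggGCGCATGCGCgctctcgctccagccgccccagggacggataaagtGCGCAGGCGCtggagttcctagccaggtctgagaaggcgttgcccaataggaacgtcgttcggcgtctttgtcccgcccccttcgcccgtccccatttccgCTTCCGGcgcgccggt
Atp5h: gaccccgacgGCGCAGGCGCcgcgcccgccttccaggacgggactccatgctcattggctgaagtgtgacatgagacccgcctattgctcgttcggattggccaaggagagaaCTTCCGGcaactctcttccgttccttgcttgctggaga
Ndufb4 and Sdha hold 3 NRF1 matches each and no ETS match, Cox6a1 holds both kinds, and Uqcr11 holds a single ETS match.

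Levels between genes were compared per 1000 bases of transcript. In LSK cells the median member of complex III stood at 531 per 1000 bases, of complex IV at 460.3, of complex V at 459, of complex I at 286 and of complex II at 279.9. Marrow gave another order, with 123 for complex III, 93.3 for complex IV, 83.3 for complex V, 82 for complex II and 55 for complex I. The stromal TPM, which are already per length, had medians of 365 for complex V, 224 for complex IV, 217 for complex III, 199 for complex II and 144 for complex I. By symbol, the gene with the highest level per length was the same in every table for complex IV (Cox4i1) and complex V (Atp5b, the catalytic beta subunit). Among the genes counted with complex I it was Ndufa4 in every table, itself known as a subunit of complex IV. Next after Ndufa4 came Ndufb7 in LSK cells (658) and marrow (144), and Ndufa4l2 in stromal cells (354 TPM). The tables were normalised separately, so levels were ranked within a table and not tested across tables.

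Some marrow levels were far below their place in the other tables. Atp5g1, 1 of the genes for the proton-carrying c subunit, averaged 2.01 in marrow, 443 in LSK cells and 173 TPM in stromal cells. Atp5l averaged 1.53 in marrow and 365 in LSK cells, and Cox7c 1.37 and 395. Ndufa12 (2.11 and 538) and Ndufs5 (2.15 and 72.7) were low in the same way, and so were Ndufa8 (5.52 and 363) and Ndufa6 (3.82 and 145). Annotated pseudogenes near-identical to the member's transcript (at least 90% over at least 150 bases) numbered 15 for Atp5g1, 13 for Atp5l, 4 for Cox7c, 1 each for Ndufa12 and Ndufs5, and 0 for Ndufa8 and Ndufa6. Of the members in all tables, the 39 without such a copy had a median marrow minus LSK difference of 0.30 on the log2 scale, each relative to the median member of its table, the 24 with 1 to 2 copies of 0.32, the 5 with 3 to 5 copies of -0.93 and the 3 with 6 or more of -5.32. Atp5h, with 6 copies, stood at -1.54. Ndufa8 and Ndufa6 were low with no such copy. The sources used here do not say how reads of such copies were counted, and its part in these levels was not tested. The marrow row of Ndufa13 is identical to that of Yjefn3, so the 2 genes cannot be told apart there. Marrow values of all these genes are uncertain, and they are part of the marrow counts and medians below.

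In LSK cells the members moved together from library to library, and no group stood apart. On the log2(value + 1) scale the median member stood at 7.52, 8.36 and 7.56 for WT 1 to 3, at 7.98, 7.98 and 8.80 for transplanted WT 1 to 3, at 9.01, 7.03 and 7.91 for EAP 1 to 3, and at 8.09, 8.35 and 8.11 for EAP with ENU 1 to 3. WT 2, transplanted WT 3 and EAP 1 were the high library of their groups and EAP 2 was the lowest of all, so that the ranges of the 4 groups overlapped. EAP 1 held the highest value of 56 of the 77 members with a mean of at least 5, and EAP 2 the lowest value of 67. The summed members made up 2.36 ± 0.379% of a WT library, 2.94 ± 0.496% of transplanted WT, 2.49 ± 0.898% of EAP and 2.80 ± 0.269% of EAP with ENU (SD, n = 3 each).

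**Figure D1:**
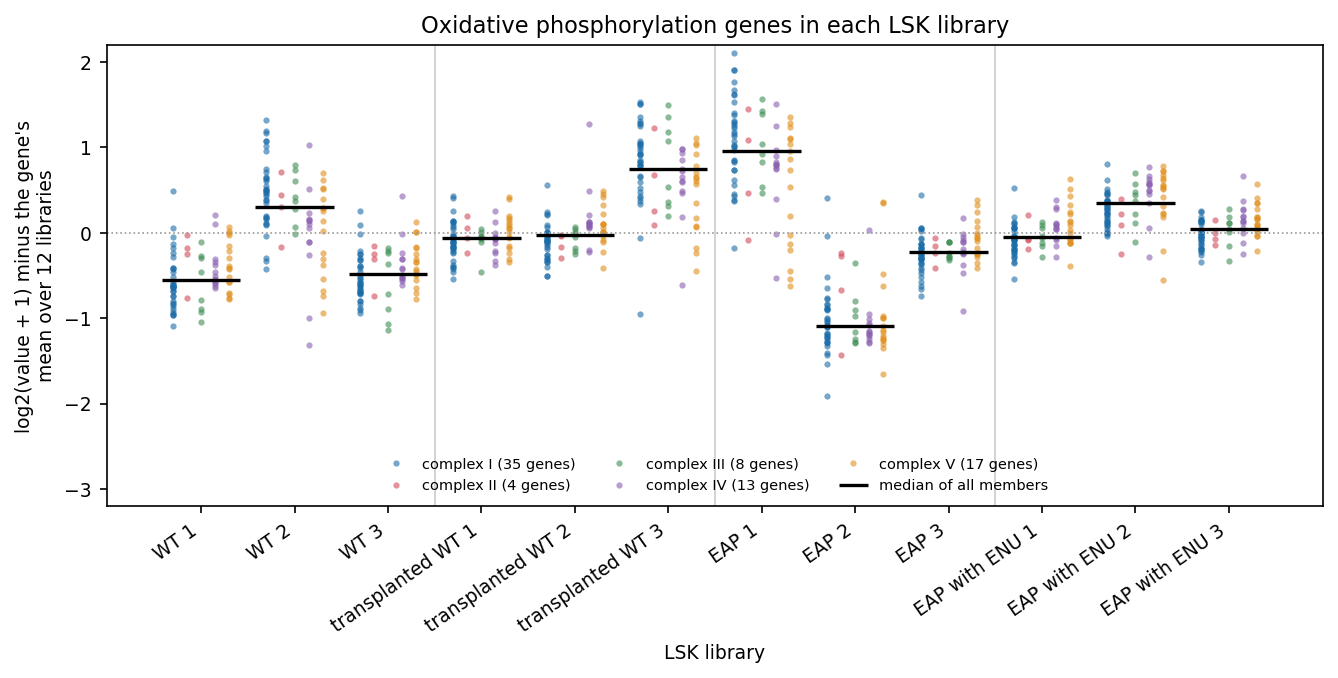
Each point is 1 of the 77 members with a mean of at least 5 in 1 of the 12 LSK libraries, plotted as log2(value + 1) minus that gene's mean over the libraries and coloured by complex, with the median of all members as a bar. Most members sit high in WT 2, transplanted WT 3 and EAP 1 and low in EAP 2, where 67 of 77 had their lowest value.

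The pattern ran through all 5 complexes. Of Ndufb8, an accessory subunit of complex I (chr19:44548572-44555440), WT 1 to 3 held 282, 1162 and 299, the transplanted WT libraries 505, 444 and 1569, the EAP libraries 2066, 218 and 405, and those of EAP with ENU 447, 555 and 491. Of Sdhb, the iron-sulfur subunit of complex II (chr4:140961203-140979193), WT held 299.7, 838 and 305, transplanted WT 489, 456 and 1196, EAP 1400, 189 and 432, and EAP with ENU 479.7, 545 and 510.1. For both genes a single library of each of the first 3 groups was more than any library of EAP with ENU, whose 3 libraries lay close together. Values of Uqcrc1, a core protein of complex III (chr9:108936633-108949623), were 506, 1630 and 445 for WT, 939.6, 829.3 and 2130 for transplanted WT, 2458, 734 and 763 for EAP and 839.6, 866 and 743 for EAP with ENU. For Cox4i1, the common form of subunit 4 of complex IV (chr8:120668222-120674207), WT gave 586, 913 and 603, transplanted WT 853, 895 and 1342, EAP 1666, 358 and 793, and EAP with ENU 909.9, 1089 and 939.6. Uqcrc1 and Cox4i1 were high in the same 3 libraries, and Cox4i1 was lowest in EAP 2.

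A few genes, most of them of complex V, ran the other way. For Atp5b (chr10:128083273-128090391) WT gave 1818, 898 and 1744, transplanted WT 2267, 2316 and 1463, EAP 1119, 1123 and 2048, and EAP with ENU 2334, 2473 and 2203. For Atp5g2, another c subunit gene (chr15:102662864-102672352), the values were 249, 149 and 273 for WT, 269, 349.6 and 183 for transplanted WT, 171, 104 and 312 for EAP and 385, 412 and 371 for EAP with ENU. Both were low in WT 2, transplanted WT 3 and EAP 1, the libraries where Ndufb8 and Sdhb were high, and both were low in EAP 2 as well. Of Atp5d, the delta subunit, WT held 298, 215 and 307, transplanted WT 462, 476 and 307, EAP 254, 173 and 452, and EAP with ENU 496, 513 and 441. WT 2 lay above both other WT libraries for 66 of 77 members (45.7% of 9531 genes did so), transplanted WT 3 for 67 (44.8%) and EAP 1 for 68 (44%). Below both other libraries in all 3 were Atp5b, Cox6b2 and Ndufb11. Atp5g2, Atp5g3, Atp5d and Atp5a1, the catalytic alpha subunit, were below both in WT 2 and transplanted WT 3. EAP 2 lay below both other EAP libraries for 71 members (34.6% of genes).

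**Figure D2:**
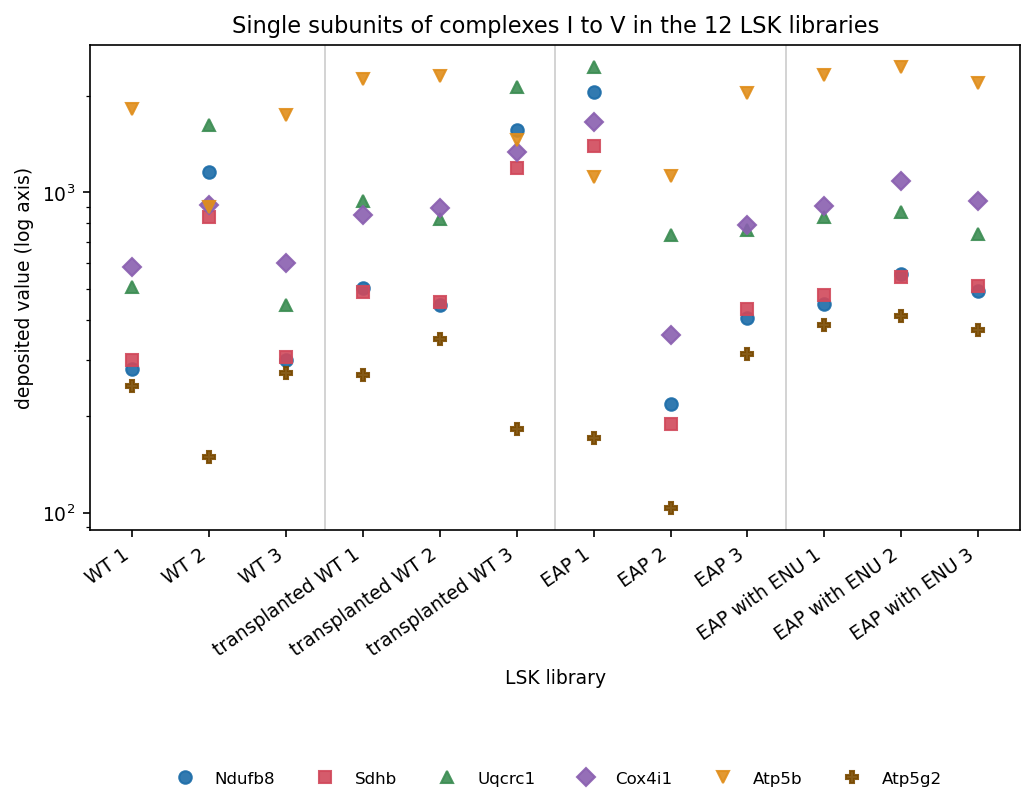
The deposited values of 6 subunits in the 12 LSK libraries are plotted on a log axis. Ndufb8, Sdhb, Uqcrc1 and Cox4i1 peak in WT 2, transplanted WT 3 and EAP 1 (Ndufb8 1162, 1569 and 2066), where Atp5b and Atp5g2 are low.

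The libraries with high members differed in other ways. Their totals were the highest in LSK cells, at 1130054 for WT 2, 1206739 for transplanted WT 3 and 1437201 for EAP 1. EAP 2 had the lowest total, 808377, and the rest had 868105 to 1034526. Genes at 0 numbered 280 in WT 2, 85 in transplanted WT 3, 279 in EAP 1 and 178 in EAP 2, against 20 to 54 in the rest. Member transcripts are short (median 732 bases, against 2602 for the LSK genes, with 48 of 83 under 800), and other genes with transcripts under 800 bases followed the same course. Their median stood at 5.73, 6.42 and 5.78 for WT 1 to 3, at 6.08, 6.16 and 6.74 for transplanted WT, at 6.89, 5.44 and 5.91 for EAP and at 6.08, 6.22 and 6.07 for EAP with ENU. Genes with transcripts of 3000 bases or more ran opposite, at 3.62 in WT 2, 3.63 in transplanted WT 3 and 3.25 in EAP 1 and at 4.11 to 4.48 in the other 9. Cell type markers moved too. The 6 LSK markers had their lowest medians in EAP 1 (6.50), transplanted WT 3 (7.39) and WT 2 (7.61), against 7.66 to 8.66 elsewhere. The 5 neutrophil progenitor markers, headed by Mpo, summed to 2008 to 2186 in WT, 3193 to 7252 in transplanted WT, 2873 to 18538 in EAP and 7263 to 10513 in EAP with ENU, with the highest value in EAP 1. The 4 B cell markers had a median of 5.69 in WT 2 and 1.89 to 3.77 elsewhere. Egr1, a gene of stress and early response, was 840.5 in EAP 2, the library with low members, and 57.7 to 329 in the rest. The part of library totals, of transcript length, of these cell types and of the Egr1 difference in the member levels was not tested. In bulk RNA, fewer cells of a type and less RNA per cell cannot be told apart.

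All 79 members entered the fit, and none passed in any of the 4 LSK comparisons (limma on log2(value + 1), adjusted p under 0.05 over all genes). The test called few genes at all: 3 of 11730 (0.0256%) in transplanted WT against WT, 3 (0.0256%) in EAP against transplanted WT, 0 in EAP with ENU against EAP and 2 (0.0171%) in EAP with ENU against transplanted WT. The median standard error of a member was 0.47. EAP with ENU against EAP, with 0 calls, had 617 genes (5.26%) at an unadjusted p under 0.05. The 4 comparisons share control libraries, so their differences are not independent of one another.

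Mean values of most members were higher in transplanted WT than in WT, without any member passing. In transplanted WT against WT 74 of 79 log2 differences were above 0 (49.9% of all genes were), with a median of 0.43 for the members and near 0 for all genes. With values centred by transcript length the member median was 0.20, with 63 of 78 above 0. The medians were 0.43 for complex I, 0.18 for II, 0.50 for III, 0.45 for IV and 0.48 for V. None had an unadjusted p under 0.05, against 7.29% of genes (3.15% higher and 4.13% lower). Without WT 2 the member median was 0.74, and without transplanted WT 3 it was 0.21. In 10 members the groups did not overlap with transplanted WT higher (7.71% of genes did so), among them Ndufs4, Ndufs6, Sdhc, Cox5a, Cox8a, Atp5a1, Atp5e, Atp5g3 and Atp5sl. Ndufs1, the largest subunit of complex I, was the single member separated the other way (8.42% of genes), at 138, 141 and 132 for WT and 117, 111 and 127 for transplanted WT.

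Among the members with the smallest p was Atp5e, the epsilon subunit of the ATP synthase, with 174, 219.8 and 193 for WT and 294, 304 and 397 for transplanted WT (log2 difference 0.75 ± 0.36, SE, limma adjusted p = 0.705). All 3 transplanted libraries lay above all WT libraries. Cox6a2, the form of subunit 6a known from heart and muscle, was 26.6, 10.9 and 31.3 against 25.1, 56.6 and 42, with overlap. Of the members with a smallest p on the lower side, Uqcrb differed by -0.11 and Ndufa5 by -0.04.

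The libraries that entered the fit changed the calls of this comparison. In fits without WT 2, transplanted WT 3 and EAP 1, chosen after seeing the data, 490 genes passed (4.18%), among them 1 member, Uqcrc1 (0.90 ± 0.17, limma adjusted p = 0.0313), and 18 members had an unadjusted p under 0.05 (24.9% of genes). With a term for those libraries in place of leaving them out, Uqcrc1 was again the only member (0.73 ± 0.17, limma adjusted p = 0.0478), with 2.34% of genes called and 26 members at an unadjusted p under 0.05 (21.4% of genes). Without EAP 2 as well, 1104 genes passed as higher and as many as lower (9.41% each), and 34 members passed, all higher, with 49 at an unadjusted p under 0.05 (34.8% of genes): 18 of complex I, 1 of II, 4 of III, 4 of IV and 7 of V. There Uqcrq differed by 0.97, Ndufs6 by 0.93, Uqcrc1 by 0.90, Sdhb by 0.64, Cox4i1 by 0.56 and Atp5b by 0.36, and the member median was 0.42. The fits that leave these libraries out compare 2 libraries with 2, and their spread rests on the few libraries kept. The fit with the term keeps every library. EAP 2 is in neither compared group, and it held the lowest value of 67 of 77 members. Leaving it out as well kept the Uqcrc1 difference at 0.90 and the member median at 0.42. The standard error of Uqcrc1 went from 0.17 to 0.12, so the 34 calls came with a smaller spread and not with larger differences. The libraries left out had the highest and the lowest medians of the members themselves, so a smaller spread of members follows from that choice. The 34 calls are thus no independent test of the members. With values centred by transcript length and without the 3 libraries no member passed, 0.789% of genes did and the member median was 0.18. In the same libraries Elane, a granule enzyme of neutrophil progenitors, went from 22.4 and 25.2 in WT 1 and 3 to 196 and 581 in transplanted WT 1 and 2, and its part in the member differences was not tested.

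Mean values of most members were lower in EAP than in transplanted WT. Of 79, 7 had a log2 difference above 0 (47.1% of genes), and the median was -0.31 (all genes -0.02), from -0.15 for complex II to -0.41 for complex V. Without EAP 2 the median was 0.16, so its sign rested on that library. It was -0.05 without transplanted WT 3 (36 of 79 above 0), -0.82 without EAP 1, whose labels conflict, and -0.16 with length-centred values (19 of 78 above 0). In 4 members EAP was lower without overlap (3.18% of genes): Sdhc, Atp5a1, Ndufs5 and Cox6a2. None was higher without overlap (3.8% of genes). Cox6a2 values were 25.1, 56.6 and 42 for transplanted WT and 22.6, 9.45 and 11.6 for EAP, a log2 difference of -1.46 ± 0.44 with a limma p of 0.00646. Ndufs5, an accessory subunit of complex I, had 85, 95.4 and 157 for transplanted WT and 83.1, 16.3 and 37.9 for EAP, a difference of -1.51 ± 0.49 with a limma p of 0.0101. These 2 members were at an unadjusted p under 0.05 (3.61% of genes were, 1.65% higher and 1.96% lower), and neither passed (limma adjusted p = 1.0). For both, the nearest EAP value, in EAP 1, lay just under the lowest transplanted WT value. Atp5e differed by -0.66, with overlap; on the other side Atp5s differed by 0.40, Ndufs1 by 0.24 and Ndufb11 by 0.17. Without the 3 libraries the median was -0.58 and 29 members had an unadjusted p under 0.05 (14.2% of genes), none passing. EAP is then EAP 2 and EAP 3 alone.

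Within EAP, mean values of most complex V genes were higher with ENU than without. Of 79 members, 59 had a log2 difference above 0 (52.9% of genes), with a median of 0.26 for the members and 0.03 for all genes. With length-centred values the member median was 0.12. The medians were 0.41 for complex V, 0.40 for IV, 0.22 for III, 0.16 for I and 0.03 for II. The groups did not overlap in 8 members, all higher with ENU (6.68% of genes, with 5.98% lower): Atp5a1, Atp5b, Atp5e, Atp5g2, Atp5g3, Sdhc, Cox4i2 and Cox6b2. The 3 libraries with ENU had 385, 412 and 371 of Atp5g2 against 171, 104 and 312 without, a difference of 1.13 ± 0.39 (limma adjusted p = 0.909). Atp5g3, the third c subunit gene, differed by 0.84 ± 0.32 and Atp5d by 0.83 ± 0.33, at the same limma adjusted p of 0.909. Sdhc, a membrane anchor of complex II, held 207, 181 and 209.5 for EAP and 255, 289 and 244 with ENU (0.40 ± 0.18, limma adjusted p = 0.909). These 4 and Cox4i2 had an unadjusted p under 0.05, all higher, against 5.26% of genes (2.98% higher and 2.28% lower). On the lower side the smallest p belonged to Atp5s (-0.78), Uqcrc1 (-0.45) and Sdha (-0.18). Without the 3 libraries the median was 0.77 and 69 members were at an unadjusted p under 0.05 (26.3% of genes), with none passing; EAP then holds EAP 2, the lowest library, and EAP 3. Without EAP 2 alone the median was -0.22, and its sign thus rested on that library.

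EAP with ENU against transplanted WT, which spans genotype, shRNA and ENU at once, gave a member median of -0.05 (all genes 0.01). Values were above 0 in 30 of 79 members (51.3% of genes). Cox4i2, the alternative form of subunit 4 known to respond to low oxygen, was low throughout, at 0.975, 3.28 and 2.35 for transplanted WT and 3.001, 6.16 and 5.92 for EAP with ENU (0.94 ± 0.40, limma adjusted p = 1.00). It was the only member at an unadjusted p under 0.05 (3.21% of genes, 1.79% higher and 1.42% lower). Without overlap, Atp5a1, Atp5g2, Cox8a and Ndufs1 were higher (9.9% of genes) and Sdha, Ndufs5 and Cox7a2l lower (8.61% of genes). Ndufs5 was 50.4, 76.8 and 55.9 in EAP with ENU, a difference of -0.84 ± 0.49. Cox6a2 differed by -0.67, Uqcrb by 0.51 and Sdha by -0.25. Without transplanted WT 3, alone or with WT 2 and EAP 1, the median turned to 0.18.

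Other isoform genes were low in LSK cells. Cox7a1, the muscle form of subunit 7a, ran from 0.431 to 3.69 over the 12 libraries, and its common partner Cox7a2 from 67.6 to 317. Cox6b2, known from testis, ran from 15.5 to 63.9. Ndufa4l2, Cox8b and Cox8c were listed in the stromal table alone.

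**Figure D3:**
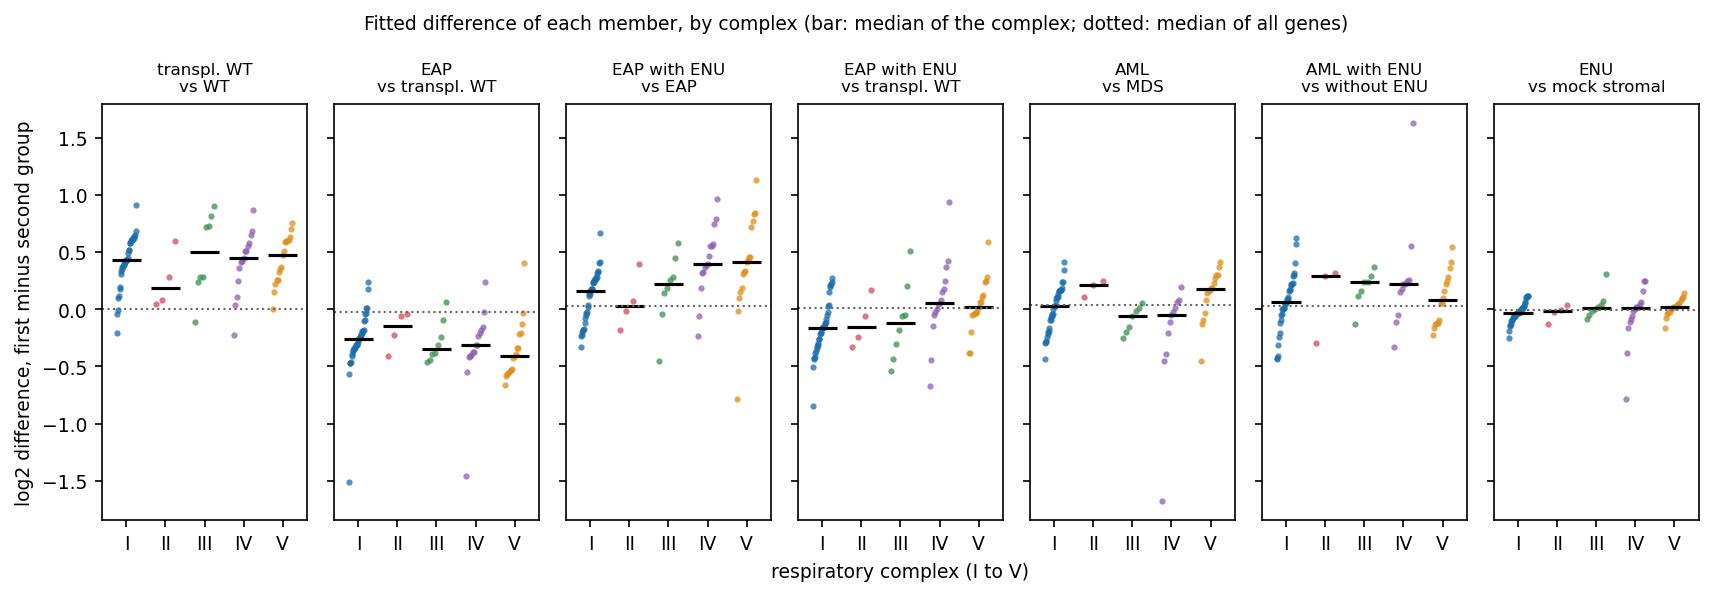
The log2 difference (first minus second group) of every tested member is plotted by complex for the 7 comparisons, with the median of each complex as a bar and the median of all genes as a dotted line. Members lie mostly above the line in transplanted WT against WT (median 0.43), below it in EAP against transplanted WT (median -0.31) and about it in the stromal comparison, and none passed the test.

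In marrow the median member level of AML libraries lay on both sides of the MDS range, and the markers of blood cell types differed widely. The member median was 5.86 to 6.05 in the 6 MDS libraries, and 6.27, 5.67, 6.05, 6.13, 5.94 and 5.67 in AML 1 to 6, where the median of all genes ran from 5.11 to 5.23. The summed members made up 0.619 ± 0.0326% of an MDS library and 0.726 ± 0.141% of an AML library (SD, n = 6 each). AML 3 to 6, at 0.841, 0.897, 0.777 and 0.696%, lay above every MDS library and AML 2, at 0.517%, below them all. Library totals differed too, at 826742 to 919152 in AML 3 to 6 and 1034245 to 1122441 in MDS. The sums themselves were 6198 to 6870 in MDS. They were 7309 and 7978 in AML 3 and 4, 6490 in AML 5, within the MDS range, and 5595 in AML 6, below it. No member passed among 71, against 361 of 11269 genes (3.2%, 112 higher and 249 lower in AML). The median log2 difference was 0.03 (all genes 0.04), and 40 members were above 0 (52.7% of genes). In no member were the 2 groups without overlap (1.71% of genes higher, 2.13% lower). With a median standard error of 0.19 this comparison was finer than those of LSK cells. Within MDS the median coefficient of variation of a member was 9.67% (16.8% over all genes), and within AML 24.5% (40% over all genes).

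The cell content behind these values was far from even. The 7 erythroid markers in the table summed to 6138 to 20388 in MDS and 16.5 to 4492 in AML, and all 8 neutrophil markers to 54900 to 85006 and 391 to 109539, with none at 0 in any library. The median of the T cell markers was 7.94 in AML 4 and 8.54 in AML 5, against 0.65 to 3.66 in the other 10, and that of the B cell markers 8.70 in AML 3, against 2.87 to 4.72. The labels give the tissue of all these libraries as marrow with AML or MDS. The part of cell content in the member values was not tested.

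**Figure D4:**
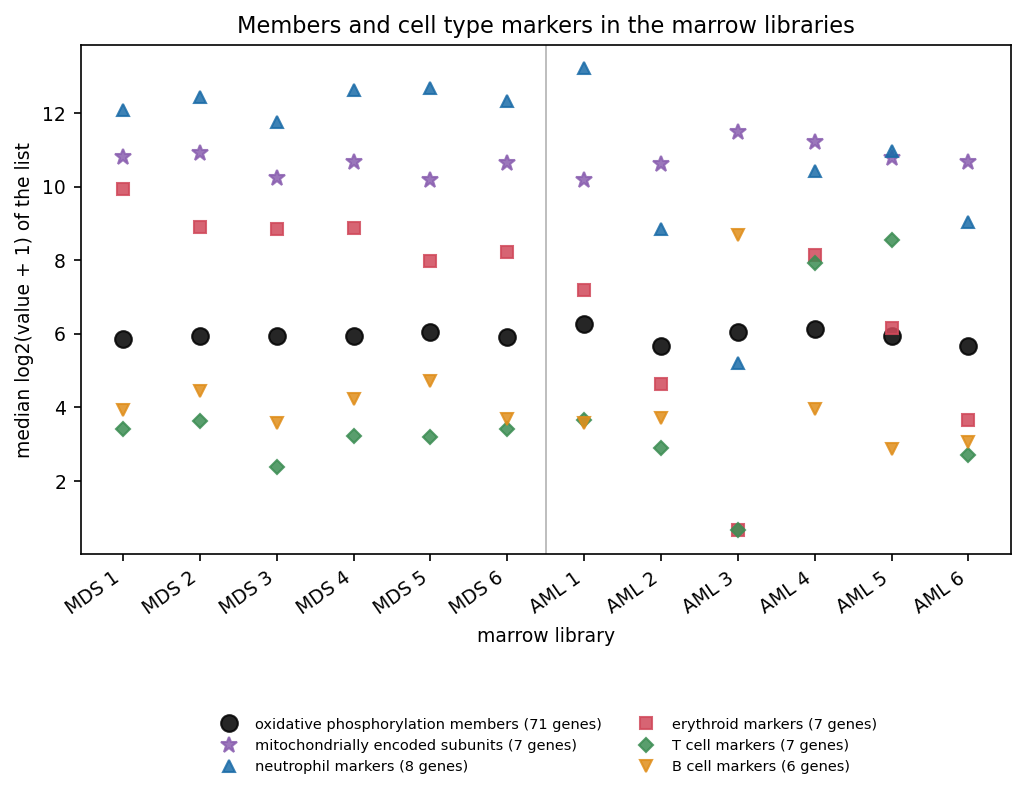
The median log2(value + 1) of the members, of the mitochondrially encoded subunits and of 4 cell type marker lists is plotted for the 12 marrow libraries. Members stay between 5.67 and 6.27, while the neutrophil markers span 5.20 to 13.22 and the erythroid markers 0.65 to 9.95.

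Complex I subunits had a median difference of 0.03 between AML and MDS. Ndufb7, an accessory subunit, was 77.7 ± 26 in AML and 102 ± 11.2 in MDS (SD, n = 6 each), a log2 difference of -0.44 ± 0.19 (limma adjusted p = 0.159). AML 1, at 124, was the highest of all 12 libraries, and AML 6 and AML 2, at 52.7 and 55.3, the lowest. Ndufa9, a subunit near the quinone site, differed by 0.35, and the flavin-binding Ndufv1 by -0.24. The 3 complex II genes in the table were all above 0, with a median of 0.21: Sdha 0.11, Sdhb 0.21 and Sdhc 0.25 ± 0.14 (limma adjusted p = 0.236). AML 3 held 184 of Sdhb, against 71.1 to 137 in the other 11. Complex III had a median of -0.06, with Uqcrfs1, the Rieske iron-sulfur protein, at -0.25 and Uqcrc1 at -0.20.

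Complex IV held the members with the smallest p. Cox4i1 was 298 to 375 in MDS with a median of 322, and 347, 263, 203, 240, 247 and 209 in AML 1 to 6. AML 1 lay within the MDS range and the other 5 below it, so the mean was 252 ± 52.1 in AML and 326 ± 28.8 in MDS, a log2 difference of -0.39 ± 0.15 (limma adjusted p = 0.113). Cox6b2 was 19 to 48.3 in MDS and 0.191 to 20 in AML, with the lowest value in AML 3 (-1.68 ± 0.61, limma adjusted p = 0.108). Neither passed. Complex V had a median of 0.18. Atp5sl, counted with complex V by its symbol alone, was 25.7 ± 3.25 in MDS and 35.1 ± 8.16 in AML (0.41 ± 0.18, limma adjusted p = 0.146). Atp5b, the highest member per length, was 963.5 ± 80.1 in MDS and 961 ± 217 in AML (-0.03 ± 0.19). At an unadjusted p under 0.05 stood Atp5sl on the higher side and Cox4i1, Cox6b2 and Ndufb7 on the lower, 4 members against 29.3% of genes.

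AML 1 changed the calls. Without it 2469 genes passed (21.9%, and 10.6% as lower), and Cox4i1 (-0.49 ± 0.12, limma adjusted p = 0.0197) and Ndufb7 (-0.58 ± 0.16, limma adjusted p = 0.0244) passed as lower in AML. AML 1 had the highest neutrophil marker median of the 12 libraries, 13.22. The 3 AML mice given ENU as donor and recipient match the ENU exposure of the MDS mice but not their shRNA. With these AML mice alone no gene passed, 14 members were at an unadjusted p under 0.05 (26.9% of genes) and the member median was 0.17. By edgeR on the recovered reads 447 genes passed (3.97%) and no member.

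Genes that build or serve the complexes were counted in the same fit. Of 45 assembly factors in the fit none passed, and 40 were above 0 in AML (52.7% of genes), with a median of 0.34. At an unadjusted p under 0.05 were 14, all higher (29.3% of genes were at such a p, 15.4% higher). Bcs1l, the chaperone that inserts the Rieske protein into complex III, was 10.8 ± 3.08 in MDS and 22.2 ± 7.67 in AML (0.96 ± 0.24, limma adjusted p = 0.0516), without overlap. Uqcc2 (0.74, limma adjusted p = 0.0532) and Uqcc3 (0.53, limma adjusted p = 0.0554), both factors of cytochrome b, were also without overlap, with 5 of the list in all (1.71% of genes). Among 12 electron carriers and subunits outside the symbol rule, 1 passed (3.2% of genes did). Atpif1, the inhibitor of ATP synthase, was 139 ± 34.5 in MDS and 74.9 ± 21.5 in AML (-0.90 ± 0.21, limma adjusted p = 0.0435). It was 99.2 to 202 in MDS and 50.3 to 110 in AML, where AML 1 alone lay within the MDS range. The call did not hold in 9 of the 12 fits without 1 library (limma adjusted p up to 0.106, log2 difference -1.01 to -0.78), nor with ENU-matched AML (-0.58, limma adjusted p = 0.135). Atpif1 is known for a role in haem synthesis of erythroid cells. All 7 erythroid markers were below 0 in this comparison, with a median of -3.83, 2 of them passing, and their part in the difference was not tested. Of 75 mitochondrial ribosomal proteins 65 were above 0 (52.7% of genes), and Mrps6 passed (3.2% of genes did). It was 3.40 ± 0.689 in MDS and 12.2 ± 7.67 in AML (1.39 ± 0.34, limma adjusted p = 0.0499). The call of Mrps6 did not hold in 10 of the 12 fits without 1 library (limma adjusted p up to 0.109), with ENU-matched AML (limma adjusted p = 0.109) or with the replicate block (limma adjusted p = 0.107), where its log2 difference was 1.19 to 1.61. Of 16 regulators of mitochondrial genes none passed. Polrmt, the mitochondrial RNA polymerase, differed by 0.85 (limma adjusted p = 0.0611), and Myc by 1.15. Of the 15 tricarboxylic acid cycle genes none passed (Suclg2 0.59), and of the 16 glycolysis genes none (Pgam1 -0.66; median -0.20).

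The 7 mitochondrially encoded subunits listed in the marrow table did not pass either, with a median of 0.11. Of mt-Co1, the catalytic subunit of complex IV, MDS held 6131 ± 1018 and AML 4826 ± 1347 (-0.37 ± 0.34, limma adjusted p = 0.466). Of mt-Nd1, a membrane subunit of complex I, MDS held 2714 ± 475 and AML 2977 ± 1449. AML 3 was the highest library for mt-Nd1 (5626) and mt-Cytb (6639), and among the 64 nuclear members with a mean of at least 5 it was the highest for 20 and the lowest for 10. AML 2 was the lowest library for 24 members and AML 6 for 20.

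Within AML, the 4 mice with ENU were set against the 2 without. None of 71 members passed, against 11 of 11271 genes (0.0976%). The member median was 0.12 (all genes 0.03), with 50 above 0 (52.4% of genes), and it was -0.11 without AML 2. In 4 members the groups did not overlap, all higher with ENU (5.09% of genes, with 4.41% lower): Ndufv1, Sdha, Uqcrc1 and Uqcrc2. Sdha was 240, 252, 294 and 269 in AML 1, 4, 5 and 6 and 217 and 212 in AML 2 and 3 (0.29 ± 0.17, limma adjusted p = 0.59). Ndufb5, an accessory subunit of complex I, was 61.1, 64.7, 57.3 and 47.2 with ENU and 47.8 and 28.3 without (0.62 ± 0.24, limma adjusted p = 0.36), and Atp5f1 differed by 0.55 ± 0.25 (limma adjusted p = 0.454). These 2 were at an unadjusted p under 0.05 (11% of genes, 6.52% higher and 4.44% lower). Ndufa3 differed by 0.57, and on the lower side Ndufs8 by -0.41, Ndufb2 by -0.43 and Cox7a2l by -0.33. Markers moved with the groups: the median difference was 3.58 for the 8 neutrophil, 3.41 for the 7 erythroid and -2.77 for the 6 B cell markers, and AML 3 held the B cell median of 8.70. Without AML 2, when AML 3 is the whole group without ENU, 2309 genes passed (20.5%), with Cox6b2 (3.63) and Ndufb5 (0.99) higher and Ndufa4 (-1.03) and Ndufs8 (-0.82) lower among the members. Ndufa12 (-1.09) passed as well, at levels that are uncertain as said above. That fit sets the 4 libraries with ENU against AML 3 alone, which is assumed to vary like the others. Of the other lists none had a gene that passed; the smallest p were those of the assembly factor Ndufaf7 (-0.79, limma adjusted p = 0.224) and, among the regulators, Esrra (-0.67).

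In cultured stromal cells no member passed between mock and ENU, with or without the pairing of same-numbered libraries. The member median was 7.56, 7.57 and 7.50 in mock 1 to 3 and 7.51, 7.55 and 7.56 in ENU 1 to 3. The filter left 81 of 83 members, without Cox7b2 and Cox8c. No member of these passed, none had an unadjusted p under 0.05 and none was without overlap, where 0 of 12089 genes passed, 2.58% had such a p (0.976% higher and 1.6% lower) and 2.8% were higher and 4.27% lower without overlap. Differences were above 0 in 38 members, against 48.7% of genes. With the pairs as a block 0 genes passed, and 10% of genes and 2 members, Ndufa6 and Cox8b, had an unadjusted p under 0.05, neither passing (limma adjusted p = 0.483). Ndufa6, a subunit of complex I, was 149, 150.1 and 199 TPM in mock 1 to 3 and 136, 125 and 154 TPM in ENU 1 to 3, lower in every pair. The median difference was -0.01 (all genes -0.01), and the medians of the complexes lay between -0.03 for I and 0.02 for V. The median standard error was 0.12. Uqcrq, a subunit of complex III, was 56.8, 60.8 and 47.4 TPM in mock and 55.6, 77.1 and 73.5 TPM with ENU (0.31 ± 0.17, limma adjusted p = 1.00), the smallest p on the higher side before Cox5a (0.16) and Ndufc1 (0.11). On the lower side these were Ndufa6 (-0.25), Sdha (-0.13) and Atp5s (-0.16). Cox4i1 was 652 ± 46.6 TPM in mock and 626 ± 36.3 TPM with ENU (SD, n = 3 each), and Atp5b 1085 ± 199 and 1108 ± 103 TPM.

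A pair of alternative isoform genes varied widely between cultures of the same treatment. Ndufa4l2, a relative of Ndufa4 known as a target of the hypoxia response (chr10:127514967-127517154), was 96.2, 302 and 709.7 TPM in mock 1 to 3 and 181, 245 and 592 TPM in ENU 1 to 3. Cox4i2 (chr2:152754173-152765037) was 27.4, 71.8 and 207 TPM in mock and 66.7, 55.7 and 187 TPM with ENU. Both were highest in the third library of each group. Ndufa4, the common form, was 565, 517 and 272 TPM in mock and 489, 475 and 363 TPM with ENU, lowest in the third. Cox4i1 did not follow, at 698, 605 and 652 TPM in mock and 609, 601 and 667 TPM with ENU. Between treatments Ndufa4l2 differed by 0.11 ± 0.81 and Cox4i2 by 0.25 ± 0.82 (limma adjusted p = 1.00 for both). The untransformed means of Ndufa4l2 had the opposite order, 369 ± 312 TPM in mock and 339 ± 221 TPM with ENU.

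**Figure D5:**
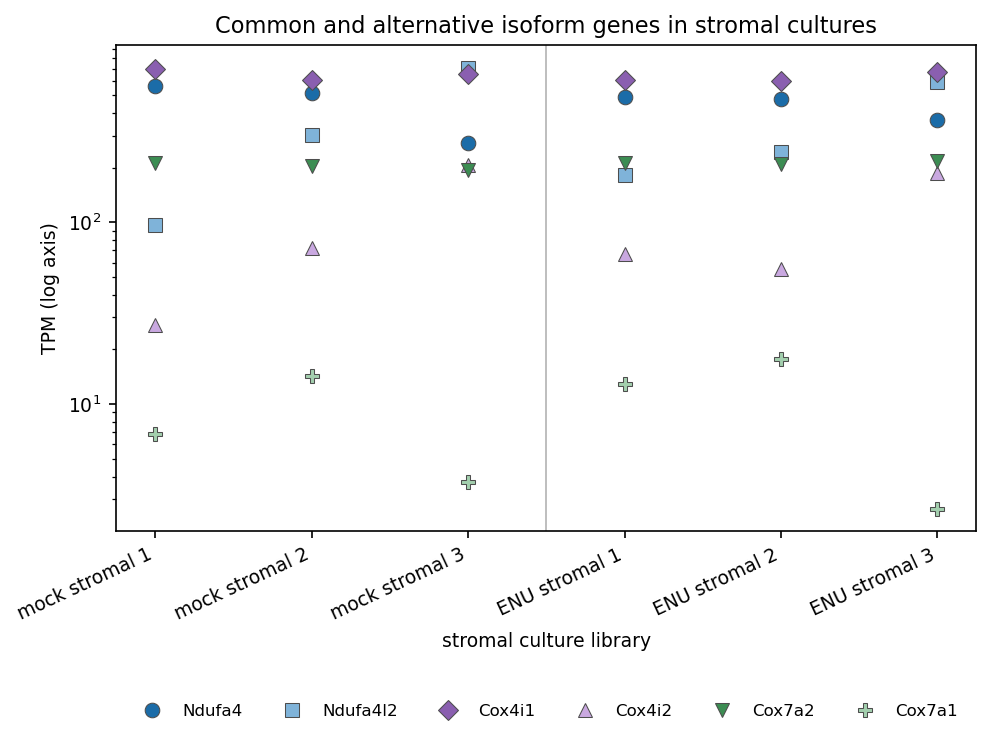
TPM of 3 common genes (Ndufa4, Cox4i1, Cox7a2) and their alternative forms (Ndufa4l2, Cox4i2, Cox7a1) are plotted on a log axis for the 6 stromal libraries. In mock 3 and ENU 3 Ndufa4l2 (709.7 and 592 TPM) exceeds Ndufa4 (272 and 363 TPM), and in the other 4 libraries it does not.

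The third cultures differed in other genes too. Mki67, a proliferation marker, was 96.7, 71.3 and 10.9 TPM in mock and 104, 93.2 and 20.4 TPM with ENU, and the median of the 9 mitosis genes was 4.27 in mock 3 and 4.77 in ENU 3, against 5.82 to 6.39. The glycolysis genes had their highest median of each group there, 7.99 and 8.23. In mock 3, 58 of 79 members lay below both other mock cultures, against 47.1% of genes. In ENU 3, 34 lay below and 35 above both others of its group, against 48.3% and 38.7% of genes. The part of proliferation or of culture conditions was not tested. Cox7a1 went another way, at 6.86, 14.4 and 3.72 TPM in mock and 12.9, 17.6 and 2.67 TPM with ENU, while Cox7a2 stayed at 194 to 217 TPM. Cox8b was 0.736 to 3.76 TPM in mock and at most 1.07 TPM with ENU, and Cox8c was listed at 0 in all 6.

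Genes around the members in the pathway were counted in the same fits. In the 4 LSK comparisons and the stromal one, no gene of the assembly, carrier, regulator, tricarboxylic acid cycle, glycolysis or mitochondrial ribosome lists passed. In transplanted WT against WT, where 49.9% of genes were above 0, the 76 mitochondrial ribosomal proteins had a median of 0.30, with 66 above 0. The 46 assembly factors had a median of 0.16 with 32 above 0, and the 81 cytosolic ribosomal proteins of 0.28 with 76 above 0. Gabpa, which encodes the ETS factor named with the promoters, had the smallest p of the 17 regulators there, at -0.92 ± 0.35 (limma adjusted p = 0.608). In EAP against transplanted WT the cytosolic ribosomal proteins were at -0.49 and the assembly factors at 0.01. Timmdc1, a complex I assembly factor, was 5.11 ± 0.363 in transplanted WT and 12.4 ± 2.89 in EAP (1.11 ± 0.30, limma adjusted p = 0.843), without overlap. In EAP with ENU against EAP, 79 of the 81 cytosolic ribosomal proteins were above 0 (52.9% of genes), with a median of 0.71. From low to high, the EAP library medians of these proteins were 7.56, 8.92 and 9.24 on the log2(value + 1) scale. Those of transplanted WT were 8.81 to 9.20 and those of EAP with ENU 9.20 to 9.49. Both EAP differences thus include 1 low library, and their medians were not computed without it. Cox18, a factor that inserts complex IV subunits into the membrane, differed by 0.69 ± 0.25 (limma adjusted p = 0.909). Cox18 was also higher than in transplanted WT (0.91 ± 0.25, limma adjusted p = 1.00), at 34.9 ± 1.06 in transplanted WT and 66.3 ± 1.64 in EAP with ENU. In stromal cells 15 of 18 glycolysis genes were above 0 with ENU (48.7% of genes), with a median of 0.25 and Ldha at 0.52 ± 0.22 (limma adjusted p = 1.00).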

How the data were processed

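Stranded TruSeq mRNA libraries were made from TRIzol extracts, per the labels' protocols. Per the submitters' processing notes, bcl2fastq, FastQC, TopHat, SAMtools, edgeR and mm10 were used. Counting program, annotation and scaling: not given in the sources used here. LSK and marrow values as the authors deposited them were treated as a normalised signal, since their totals differ between libraries although their names call them CPM. The design took them for CPM, and a log-scale test serves either unit. For stromal cells the authors deposited TPM. Of the marrow rows, 155 identical repeats were dropped, and values were whole multiples (within 0.05) of 1 read's worth, from which reads were recovered.

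Groups came from the labels. Each of the 7 comparisons was tested with limma 3.58.1 in R 4.3.3 (trend) on log2(value + 1), which understates the change of low genes, over genes reaching 1 in a number of libraries equal to the smaller group, with Benjamini-Hochberg adjustment over all genes tested at 0.05. The 4 LSK groups shared 1 fit. edgeR 4.0.16 was run on the recovered reads. Copies were found with BLAST 2.17.0 among 13583 annotated pseudogenes, and positions come from GENCODE on the mm10 build. Tables were handled with pandas 2.3.3 under Python 3.11.15, and figures drawn with matplotlib 3.10.9. Alternatives were another pseudocount, no filter, rescaling, the replicate block, narrower groups and each library left out; fits without libraries that stood apart, a term for them and length-centred values were added after seeing the data.

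Same-numbered stromal libraries deviated together (r = 0.501, 0.674 and 0.718), so the numbers were taken as pairs from the data; the sources used here do not say what they mark. The limma test was checked on simulated data with known changes. At a log2 change of 1 it recovered 16.4 to 19.4% of changed genes in the LSK comparisons and 16.4% by ENU within AML. It recovered 55.2% in AML against MDS and 49.3% in stromal cells. At a log2 change of 2 it recovered 74.6 to 85.1% over the comparisons. Changes below 1 were not simulated, so members with small differences can go uncalled.

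The members and lists were chosen with earlier results of these data known, so no list was tested as a set. Named are representative subunits and tissue isoforms, the 3 members per direction with the smallest p and a mean of at least 5 where fewer than 3 passed, and up to 3 genes of each other list, except a gene that is not reported here; a few libraries' values and Elane, Mki67 and Egr1 were added after their values were seen.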

Additional observations from a re-analysis of the deposited data

Results flagged for a closer look

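Among 72 sets of 6 marrow values (named members, medians by complex and the members' share), 5 held a library whose gap to the rest exceeded Dixon's 95% critical value (0.625 for 6 libraries); chance flags about 1 in 20 such groups. Atp5a1 was 1245 in AML 4, against 586 to 832 in the other AML libraries. Atp5e was 196 in the same library, against 77.4 to 116. The T cell marker median was 7.94 in AML 4 and 8.54 in AML 5, and its part in these values was not tested. Cox6a2 was 5.14 in AML 6, against 0.313 to 2.08. Cox7a2l was 97.4 in AML 2, against 55.9 to 66.4. Ndufv1 was 139 in MDS 3, against 104 to 116 in the other MDS libraries.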

How the results depend on the processing

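Of 104 counts of passing members under the alternatives, 99 were 0, and of 623 values of single named members 617 stayed on their side of the threshold, 14 changed sign and 6 came to pass. Members passed in transplanted WT against WT without the 3 libraries that stood apart (1), with a term for them (1) and without EAP 2 as well (34). All-gene counts there were 490, 275 and 2208, with 89 for length-centred values without the 3, 1 with the replicate block and 0 for the 2 groups alone. In EAP against transplanted WT these were 1 without the 3, 6 with the term, 1 length-centred without the 3, 0 with the replicate block and 0 alone. EAP with ENU against EAP had 1 gene without the 3. EAP with ENU against transplanted WT had 6 without the 3, 9 with the term, 24 without EAP 2 as well, 6 length-centred without the 3, 6 alone, 1 with the replicate block and 1 with a pseudocount of 0.1. AML against MDS had 145 with a pseudocount of 0.1, 138 with the replicate block and 0 with ENU-matched AML; AML with against without ENU had 25 with that pseudocount and 0 in AML libraries alone; stromal cells had 9 without a filter. The causes were not tested.

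Leaving out each library in turn, passing members numbered 0 in the LSK and stromal comparisons, 0 to 2 in AML against MDS and 0 to 5 by ENU within AML, with all-gene counts of 1 to 5, 0 to 1, 0 and 0 to 1 in the 4 LSK comparisons, 0 to 2469, 8 to 2309 and 0 to 3 in the others. Member medians ran from 0.21 to 0.74 in transplanted WT against WT, from -0.82 to 0.16 in EAP against transplanted WT, from -0.22 to 0.77 in EAP with ENU against EAP, from -0.23 to 0.18 in EAP with ENU against transplanted WT, from -0.05 to 0.10 in AML against MDS, from -0.11 to 0.32 by ENU within AML and from -0.078 (without mock 3) to 0.036 (without mock 1) in stromal cells. Where 1 library is left in a group, it is assumed to vary like the others. The replicate block in stromal cells changed no call but brought members at an unadjusted p under 0.05 from 0 to 2; in LSK cells and marrow same-numbered libraries did not deviate together, and the block called no member. No paired analysis was possible because AML with and without ENU share no numbers. Depth is unknown outside marrow.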
